A study of Bos taurus with 21 samples.

Results

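PAEP and GLYCAM1 encode whey proteins of cow milk, and their transcripts were followed in milk somatic cells of 21 cows. The members are the rows named PAEP and GLYCAM1 in the count tables, 2 of the 13570 gene rows. They were chosen by name, and both had counts in every cow. All cows were of the Holstein strain, in parity 2 to 4 and sampled once each. The labels put 9 cows in the high yielding group (HY) and 12 in the low yielding group (LY), and the study made this split from a national production index. Lactation period was 41 to 268 days in HY and 52 to 270 days in LY, and milk yield, fat, protein and solid values were given for each cow without a unit. The milk yield value was 181 to 468 in HY and -404 to 86.9 in LY. The paper describes it as a normalized value derived from the index and plots it as a breeding value. It is therefore not the amount of milk a cow gave at sampling. The fat, protein and solid values also include negative numbers, and the paper does not describe them. No treatment was applied, and each library is a mixture of all the cells that one milk sample held.

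PAEP, whose symbol comes from the human endometrial protein, encodes beta-lactoglobulin in cattle. This small secreted protein of the lipocalin family binds hydrophobic molecules and is the main whey protein of cow milk. GLYCAM1 encodes a mucin-like glycoprotein of the milk serum, known in dairy science as lactophorin or component PP3 of the proteose peptone fraction. Both are made by the secretory epithelial cells of the udder, where prolactin and glucocorticoid signals acting through STAT5 switch on milk protein genes together with the caseins. Milk somatic cells are mostly leukocytes with some shed epithelial cells, so in such a bulk sample fewer secretory cells and less transcript per cell cannot be told apart.

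Each library held 7878557 to 28541904 counts on genes, and 12333 gene rows had a count in at least 1 cow. Levels are given as CPM, read counts scaled to a common library size, corrected with the TMM factors of edgeR (TMM CPM), and differences and correlations as log2(TMM CPM + 0.25). Of the marker lists, 12 of 12 luminal epithelial, 6 of 10 neutrophil, 8 of 10 macrophage, 7 of 8 T cell and 4 of 7 B cell genes were in the tables. No cow was at 0 for a measured epithelial, neutrophil, macrophage or T cell marker, whereas in the B cell list genes such as CD79A and MS4A1 were at 0 in some cows. By the mapping rate given in the study there is a lower set of 16 cows and a higher set of 5, with 1 HY and 4 LY cows in the latter. The median of PAEP was 19163 TMM CPM in the lower set and 3378 in the higher set, and that of GLYCAM1 9156 and 1010. These differences were not tested, and group and stage medians pool both sets. Relations are also given within the lower set, since the higher one holds too few cows.

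PAEP differed 992-fold between cows. Its level was lowest in HY cow 3235, with 227 TMM CPM, and highest in HY cow 3280, with 225693 TMM CPM, and the median was 9483. In raw counts this was 1818 reads (95% exact Poisson interval 1735 to 1904) in cow 3235 and 1148989 in cow 3280. As a share of all counts on genes, PAEP took 0.0231% (95% Wilson interval 0.0220% to 0.0242%) in cow 3235 and 11.2% (11.2% to 11.3%) in cow 3280. Beta-lactoglobulin transcripts were therefore a trace in some milk samples and a large part of all counted reads in others. As the plot of levels by cow shows, the widest step in this range lay above cows 3235, 2814, 3057 and 7643, at 227 to 745 TMM CPM. The next level was 2814 TMM CPM, in HY cow 2920. Whether the cows form separate blocks was not tested. When the cows were ordered by the share of counts, none of the 20 pairs of neighbours had overlapping counting intervals. These intervals cover the counting error of reads alone. They are too narrow for molecules where PCR copies of one molecule count as separate reads. With 1 library per cow the variation between repeat samples of a cow is unknown.

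GLYCAM1 spanned a wider range, 3194-fold. The lowest value was 41.4 TMM CPM in HY cow 3235 (331 counts, interval 296 to 369), the median was 3896, and the highest was 132268 TMM CPM in HY cow 3280 (673369 counts). Its share of counts ran from 0.00420% (0.00377% to 0.00468%) to 6.59% (6.58% to 6.61%). In 2 of the 20 pairs of neighbouring cows the intervals of the share overlapped. The same cows stood at the ends for both genes. HY cows 3235, 2814 and 3057 and LY cow 7643 were the 4 lowest, and HY cows 3280, 3262 and 3075 and LY cows 2893 and 3369 were the 5 highest.

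**Figure D1:**
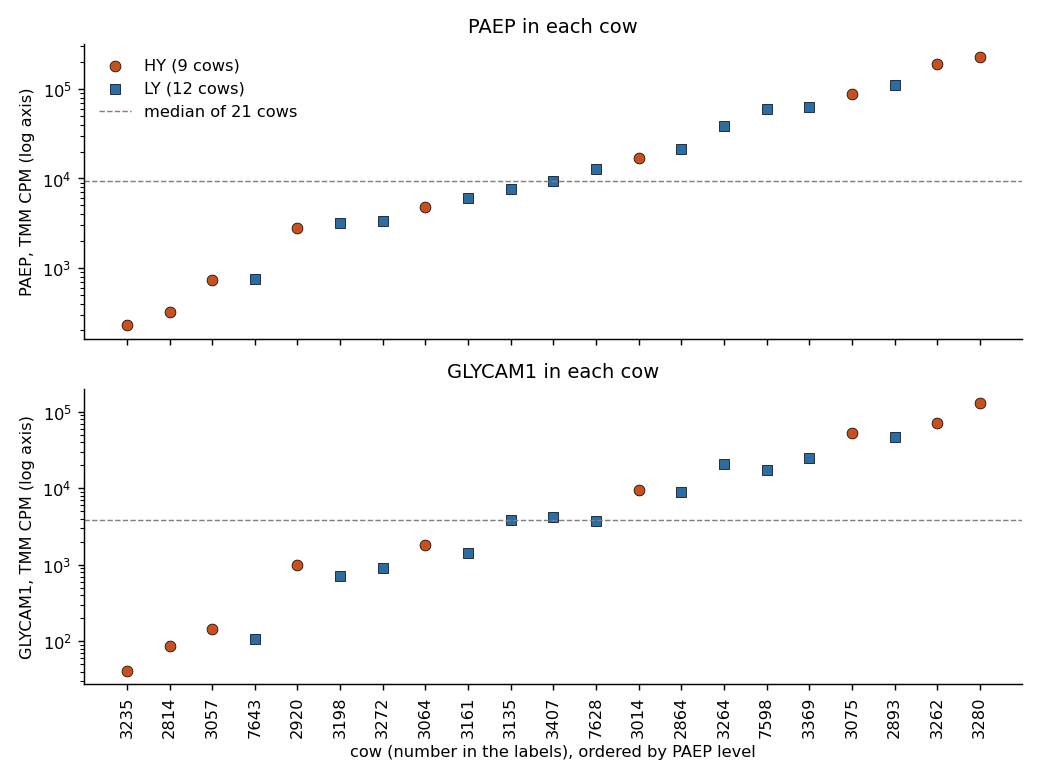
PAEP (top) and GLYCAM1 (bottom) in each of 21 cows as TMM CPM on a log axis, with cows in the order of PAEP. Each point is 1 library, circles are HY, squares are LY and the dashed line is the median (9483 for PAEP, 3896 for GLYCAM1). HY cows stand at both ends, with LY cows between them.

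Neither gene differed detectably between the high and low yielding groups. PAEP in HY ranged from 227 to 225693 TMM CPM with a median of 4739, and in LY from 745 to 111997 with a median of 11077. GLYCAM1 ranged from 41.4 to 132268 with a median of 1831 in HY, and from 108 to 47164 with a median of 4040 in LY. For both genes all 12 LY cows lay inside the HY range, and only 4 of the 9 HY cows lay inside the LY range. On the log2 scale the HY mean of PAEP was 12.80 ± 3.87 (SD, n = 9) and the LY mean 13.62 ± 2.12 (SD, n = 12). The difference of -0.82 had p = 0.536 in the two-sided exact permutation test with 293930 splits. For GLYCAM1 the means were 11.31 ± 4.42 (SD, n = 9) and 12.001 ± 2.54 (SD, n = 12), a difference of -0.69 with p = 0.653 in the exact permutation test.

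The direction of the group difference depended on the average used. While mean log2 levels and medians were lower in HY, the mean TMM CPM was higher in HY, with 58877 against 28206 for PAEP and 29765 against 11145 for GLYCAM1. The quasi-likelihood test of edgeR, which compares mean counts, gave log2 fold changes of HY over LY of 1.06 for PAEP (p = 0.309, adjusted p = 0.999) and 1.42 for GLYCAM1 (p = 0.206, adjusted p = 0.999). DESeq2 gave 1.046 (SE 0.86) and 1.41 (SE 0.90), each with an adjusted p of 0.9998. Among all 12333 genes edgeR called 0 at an adjusted p under 0.1 and 580 (4.70%) at an unadjusted p under 0.05, 187 higher and 393 lower in HY. DESeq2 called 1 and 367 genes. Without HY cow 3280 the edgeR log2 fold changes were 0.42 and 0.59, and with parity and lactation period as covariates 0.46 and 0.82. With no normalization factor they were 0.33 for PAEP and 0.69 for GLYCAM1, the median over all genes moved from 0.02 to -0.17, and the split of genes with p under 0.05 became 64 higher and 577 lower.

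The caseins, which form the micelles that carry calcium and phosphate in milk, were the reference set for the members. The 4 casein genes together ranged from 864 to 959655 TMM CPM with a median of 73953. PAEP followed them closely, with Pearson r = 0.973 and Spearman rho = 0.966 against the summed caseins over 21 cows. For GLYCAM1 these were r = 0.983 and rho = 0.978. Each of these 4 values had a permutation p of 1e-05, the smallest that 100000 resamples can give. With the 2 cows farthest from the median casein level left out r was 0.959 and 0.976, and within the 16 cows of the lower mapping set it was 0.976 and 0.983. Leaving out any cow kept r between 0.967 and 0.979 for PAEP and between 0.979 and 0.987 for GLYCAM1.

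Among the single caseins, both members were nearest to CSN3, the kappa-casein that stabilises the micelle surface. For PAEP, r was 0.978 with CSN3, 0.975 with CSN1S1, 0.969 with CSN1S2 and 0.962 with CSN2, the beta-casein gene. For GLYCAM1, the values were 0.986, 0.984, 0.979 and 0.973 in the same order. Whether neighbours in this order differ was not tested. The regressions of each member on all other genes gave adjusted p-values between 4.46e-13 and 7.65e-10 for the caseins. All 4 of 4 caseins were thus called with positive sign for both members, where 13.0% of 12332 genes were called with positive sign for PAEP and 16.5% with negative sign. For GLYCAM1 these shares were 13.1% and 16.6%. Between the members themselves r was 0.993 and rho 0.986 (adjusted p = 1.94e-15), and r stayed between 0.991 and 0.994 when any cow was left out.

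Relative to the caseins within a library, a ratio that needs no normalization, the members varied several-fold. PAEP had between 7.84 counts per 100 casein counts, in LY cow 3135, and 49.9, in LY cow 2893, with a median of 20.7. GLYCAM1 had between 3.96 and 21.0 counts per 100 casein counts, in the same cows, with a median of 6.25. The whey to casein ratio thus moved 6.37-fold for PAEP and 5.31-fold for GLYCAM1 while the casein level itself moved 1111-fold. The SD of the log2 ratio over the cows was 0.66 to 0.81 for PAEP against a single casein and 0.60 to 0.86 for GLYCAM1 against a single casein. Between pairs of caseins it was 0.29 to 0.59. The tightest partner of GLYCAM1 among the milk protein genes was LALBA, which encodes alpha-lactalbumin, the whey protein that serves as a subunit of lactose synthase. That log2 ratio had an SD of 0.42 and a 2.74-fold range, whereas PAEP against LALBA had an SD of 0.65 and a 5.65-fold range. These spreads are descriptions of 21 libraries and were not compared by a test.

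GLYCAM1 rose more steeply than PAEP as milk protein transcripts increased. On the log2 scale GLYCAM1 changed by 1.15 (SE 0.03) per unit of PAEP. Its slope on the summed caseins was 1.10 (SE 0.05), against 0.94 (SE 0.05) for PAEP. There were 14.5 GLYCAM1 counts per 100 PAEP counts in LY cow 7643 and 59.3 in HY cow 3075, with a median of 37.2. The 5 cows with the lowest values were LY 7643, HY 3235, HY 3057, LY 3198 and LY 3161, all with caseins at 1.76% of counts or less. HY cow 2814, with the second least casein (0.141% of counts), had 26.9 and was not among them. The log2 ratio of GLYCAM1 to PAEP correlated with the summed caseins, which enter neither side of it, with r = 0.807 (95% interval 0.575 to 0.918, permutation p = 3e-05) and rho = 0.758 (permutation p = 1e-04). The adjusted values over the 3 ratios set against the casein level were 9e-05 and 3e-04. Leaving out the 2 cows farthest from the median casein level, HY 3235 and HY 2814 at the low end, gave the same r of 0.807. Within the lower mapping set r was 0.788. The ratios to casein share their denominator with the casein level, so their relations to it (r = -0.261 for PAEP and 0.423 for GLYCAM1) are given as values only.

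**Figure D2:**
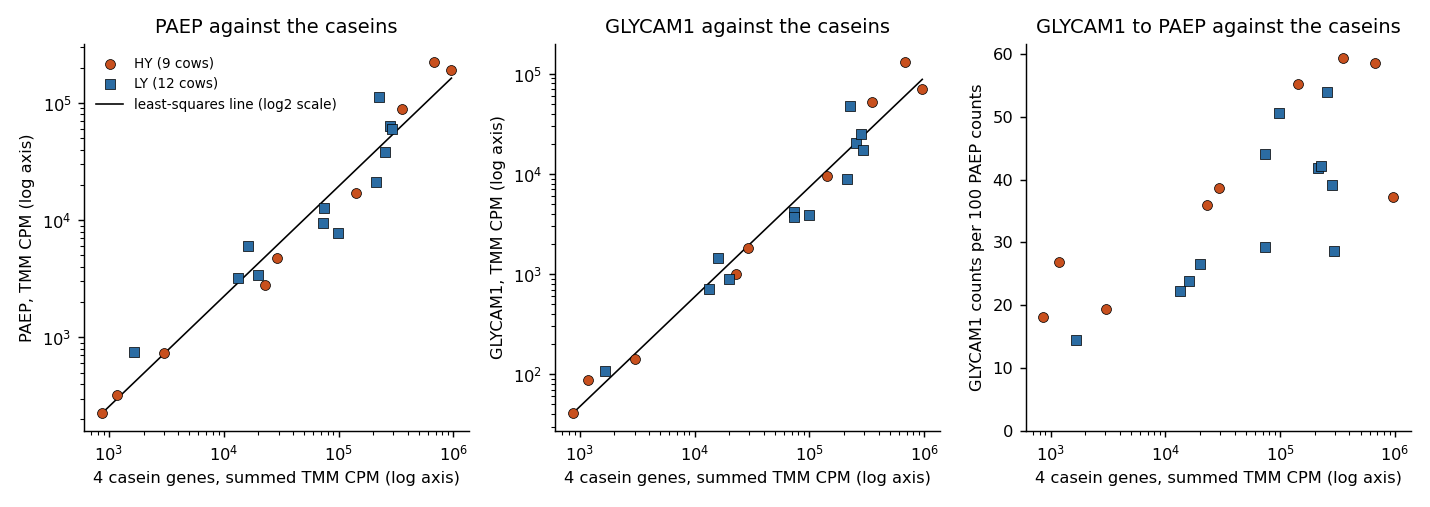
PAEP and GLYCAM1 against the summed TMM CPM of the 4 casein genes on log axes with least-squares lines (left and middle), and GLYCAM1 counts per 100 PAEP counts against the same sum (right). Each point is 1 cow, circles HY and squares LY. Both genes follow the caseins over 3 orders of magnitude (r = 0.973 and 0.983), and the GLYCAM1 to PAEP ratio is lower in cows with less casein (r = 0.807 on the log2 scale), with HY cow 2814 (26.9) above some cows with more casein.

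Over the lactation, cows sampled early had the highest median levels, but the range within a stage was far wider than the shift between stages. Gaps between the labelled days gave 3 stages. In the 8 cows of 41 to 108 days PAEP was 322 to 225693 TMM CPM with a median of 76032. The 7 cows of 167 to 224 days had 227 to 38211 with a median of 4739, and the 6 cows of 239 to 270 days had 738 to 60214 with a median of 14904. GLYCAM1 medians in these stages were 36048, 1443 and 6286 TMM CPM, within ranges of 86.7 to 132268, 41.4 to 20588 and 143 to 17240.5. All stages overlapped for both genes, and the latest stage was not the lowest.

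With lactation period as a number, PAEP gave r = -0.232 (95% interval -0.604 to 0.222, permutation p = 0.310) and rho = -0.182 (p = 0.430). For GLYCAM1 r was -0.235 (-0.605 to 0.219, permutation p = 0.303) and rho -0.203 (p = 0.378). The adjusted p over all 12333 genes was 0.554 and 0.549. No gene passed an adjusted p of 0.1 in this regression, and 2509 genes (20.3%) had an unadjusted p under 0.05, neither member among them. A quasi-likelihood fit of edgeR to the counts gave a change of -1.09 on the log2 scale per SD of days for PAEP (p = 0.0376, adjusted p = 0.197) and -1.22 for GLYCAM1 (p = 0.0368, adjusted p = 0.196). That fit called 767 genes at an adjusted p under 0.1 and 2756 at an unadjusted p under 0.05, and the members were not called. With HY cows 3235 and 2814 left out, the 2 farthest from the median level, r was -0.488 for PAEP and -0.471 for GLYCAM1. Cow 2814 combined the earliest day, 41, with the second lowest level of both genes, and without it alone r was -0.430 and -0.416 (adjusted p = 0.221 and 0.238). Within the lower mapping set r was -0.191 and -0.171. The slopes over days did not differ detectably between HY and LY (permutation p = 0.760 for PAEP and 0.782 for GLYCAM1).

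No relation to milk yield was detected, although both genes had a negative r in both groups. Over the 21 cows PAEP had r = -0.256 (95% interval -0.619 to 0.198, permutation p = 0.261) and rho = -0.268 (p = 0.240). GLYCAM1 had r = -0.236 (-0.606 to 0.218, permutation p = 0.301) and rho = -0.199 (p = 0.386). The adjusted p over all genes was 0.9999 for both, where 0 genes passed an adjusted p of 0.1, 307 genes (2.49%) had an unadjusted p under 0.05 and edgeR called 22 and 456. Within the 9 HY cows r was -0.242 and -0.237, and within the 12 LY cows it was -0.346 and -0.395. The LY cows with the lowest yield values, 3369, 2893 and 3407 (-404 to -364), were sampled at 52 to 79 days. Yield and lactation period therefore cannot be told apart within LY. Given parity and lactation period, the pooled r was -0.198 for PAEP and -0.175 for GLYCAM1. With HY cows 3235 and 2814 left out the pooled r was -0.156 and -0.135, and within the lower mapping set it was -0.321 and -0.302.

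Milk fat, protein and solid gave weaker values. For PAEP r was -0.204 with fat, -0.226 with protein and -0.141 with solid, and for GLYCAM1 it was -0.198, -0.218 and -0.123. Permutation p-values of these 6 values of r were 0.326 to 0.592, those of rho (-0.242 to -0.0195) were 0.292 to 0.936, and every adjusted p over all genes was at least 0.9997. When these 2 cows were left out r with fat was 0.0487 and 0.0477, so its sign rested on those cows, and the other values lay between -0.200 and -0.120. Within the lower mapping set they were -0.284 to -0.158. With solid the groups had opposite signs, with r of 0.165 for PAEP and 0.151 for GLYCAM1 in HY. In LY these were -0.418 and -0.415, larger in size than with yield in LY. With fat and protein r was negative in both groups (-0.353 to -0.0447). Values within a group were not tested. Over all genes 0 passed an adjusted p of 0.1 for each of these traits, and 2.30% had an unadjusted p under 0.05 for fat, 2.30% for protein and 1.65% for solid. By edgeR 0, 0 and 4 genes passed the adjusted threshold. In all, 10 relations between a member and a trait or the lactation period were computed. For yield, fat, protein and solid the edgeR coefficients had the opposite sign, 0.11 to 0.82 on the log2 scale per SD of the trait, with unadjusted p-values of 0.224 to 0.831.

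**Figure D3:**
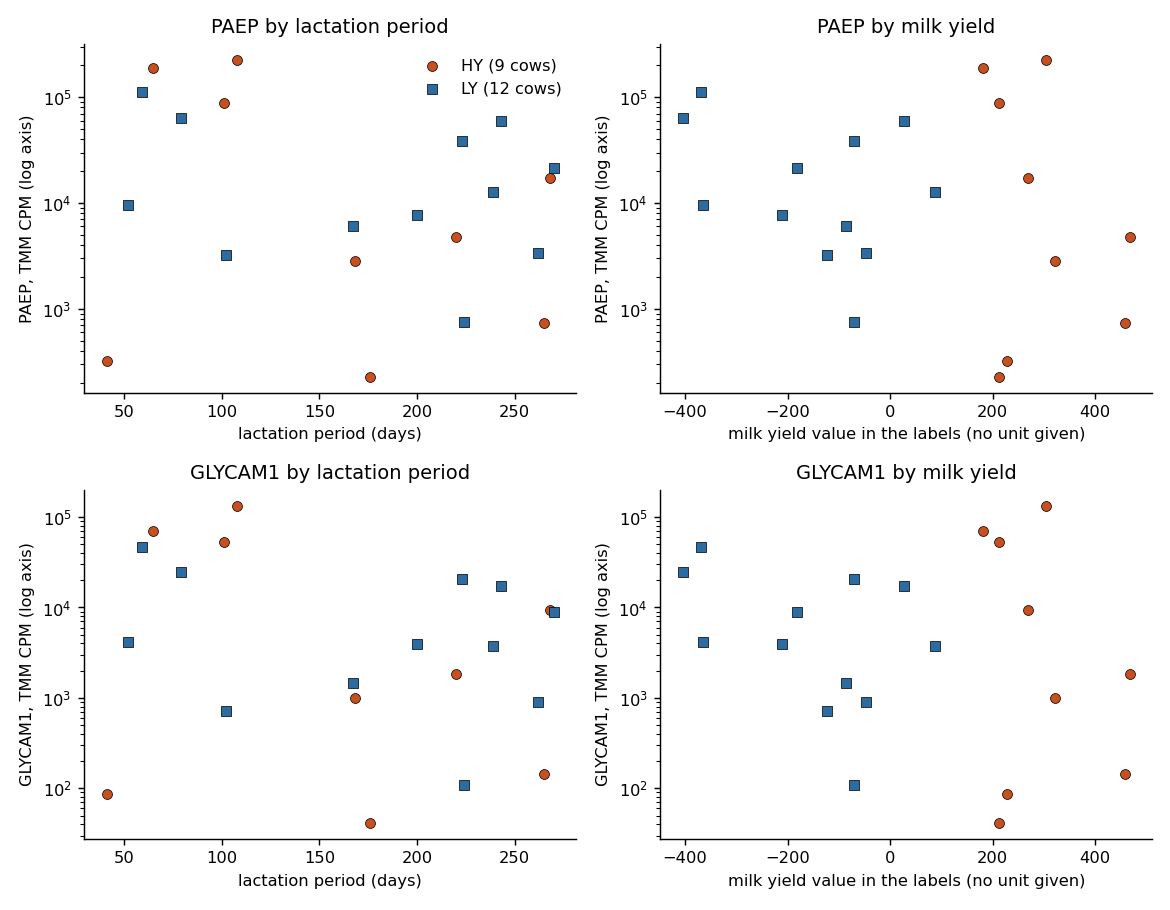
PAEP (top) and GLYCAM1 (bottom) as TMM CPM on a log axis against lactation period in days (left) and the milk yield value of the labels (right). Each point is 1 of 21 cows, circles HY and squares LY. Correlations on the log2 scale lie between -0.256 and -0.232, and the cow of day 41 has the second lowest level of both genes.

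The ratio of GLYCAM1 to casein was lower in later lactation. In the earliest stage there were 5.37 to 21.0 GLYCAM1 counts per 100 casein counts, with a median of 8.12. In the middle stage there were 3.96 to 8.96 with a median of 6.25, and in the latest stage 4.17 to 6.65 with a median of 4.87. The log2 ratio fell by 0.46 (SE 0.16) per 100 days, with r = -0.543 (95% interval -0.790 to -0.146, permutation p = 0.00971) and rho = -0.523 (p = 0.0161). Over the 10 relations of the ratios to the traits and the lactation period the adjusted p was 0.0971 for r, under the threshold of 0.1, and 0.161 for rho, above it. Leaving out the 2 cows farthest from the median day gave r = -0.652, and within the lower mapping set it was -0.586.

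The high early values came from 3 of the 8 early cows. LY cow 2893 had 21.0, HY cow 3280 had 19.6 and HY cow 3075 had 14.9 GLYCAM1 counts per 100 casein counts. In the other 5 early cows the values were 5.37 to 8.89, inside the range of the 13 later cows, 3.96 to 8.96. The adjusted p of r moved above 0.1 when any of 14 of the 21 cows was left out, to at most 0.332 without cow 2893, where r was -0.471. It stayed under 0.1 without HY cow 2814, 2920, 3014 or 3262 or LY cow 3198, 3264 or 3407, with the lowest value of 0.0375 without cow 3407. The slope was -0.44 per 100 days in HY and -0.46 in LY, and these did not differ detectably (permutation p = 0.949).

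The ratio of PAEP to casein had the same sign over days but missed the threshold. Its medians were 24.6, 16.2 and 17.0 counts per 100 casein counts from the earliest to the latest stage, within ranges of 13.0 to 49.9, 7.84 to 44.9 and 9.98 to 24.3. The log2 ratio fell by 0.32 (SE 0.18) per 100 days, with r = -0.374 (-0.694 to 0.0686, permutation p = 0.0947, adjusted p = 0.473) and rho = -0.401 (p = 0.0725, adjusted p = 0.299). Leaving out the same 2 cows gave r = -0.471. Within the lower mapping set r was -0.601, and its adjusted p in that set was 0.0876. Measured the same way, LALBA had r = -0.527 over days, while each casein against the other 3 had -0.211 to 0.328, without a test.

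With the other traits the ratios had r of -0.152 to 0.259, permutation p-values of 0.258 to 0.985 and adjusted p-values of 0.861 to 0.985, and the adjusted p of rho was at least 0.299. The largest of these values, that of PAEP to casein with fat, was 0.452 without HY cow 2920 (adjusted p = 0.234), 0.405 without the 2 farthest cows and 0.424 in the lower mapping set. For GLYCAM1 to casein with fat r was 0.156, and it was 0.312 without cow 2920 and 0.293 in the lower mapping set. Within HY, r with these traits ran from -0.290 (GLYCAM1 with yield) to 0.178 (PAEP with fat). Within LY the range was wider, from -0.562 (GLYCAM1 with solid) to 0.511 (PAEP with fat). Values within a group were not tested. Between HY and LY the ratios nearly coincided. The PAEP to casein log2 ratio had an HY mean of -2.27 ± 0.52 (SD, n = 9) and an LY mean of -2.32 ± 0.83 (SD, n = 12), with p = 0.888 in the exact permutation test. For GLYCAM1 the means were -3.76 ± 0.75 (SD, n = 9) and -3.94 ± 0.66 (SD, n = 12), with p = 0.577 in the exact permutation test. The ratio of GLYCAM1 to PAEP differed by 0.13 on the log2 scale (exact permutation p = 0.621). The 7 cows of parity 3 or 4 and the 14 of parity 2 differed by 0.35 in PAEP and 0.48 in GLYCAM1 on the log2 scale, higher parity minus parity 2 (exact permutation p = 0.802 and 0.764), and in the ratios to casein by -0.22 and -0.08 (exact permutation p = 0.516 and 0.799).

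**Figure D4:**
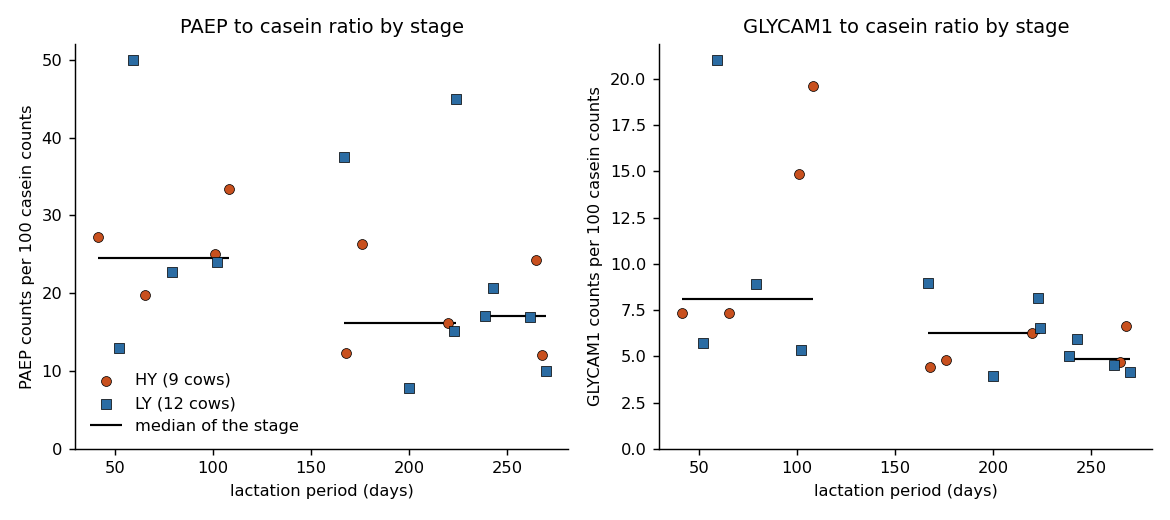
PAEP (left) and GLYCAM1 (right) counts per 100 counts of the 4 caseins against lactation period in days, with a bar at the median of each stage. Each point is 1 of 21 cows, circles HY and squares LY. For GLYCAM1 the medians are 8.12, 6.25 and 4.87, and 3 early cows lie above all the others.

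The members followed summed epithelial markers and ran opposite to summed macrophage markers. Summed luminal epithelial markers (keratins, claudins, EPCAM and others) ranged from 35.1 to 2690 TMM CPM and correlated with PAEP (r = 0.908, rho = 0.925) and GLYCAM1 (r = 0.871, rho = 0.907). Summed macrophage markers ranged from 1390 to 6663 TMM CPM and gave r = -0.817 (rho = -0.825) with PAEP and -0.836 (rho = -0.827) with GLYCAM1. Permutation p-values of these 8 values were 1e-05 or 2e-05, and adjusted over 10 relations each was at most 5e-05. With the 2 cows farthest from the median marker sum left out r was 0.876, 0.830, -0.745 and -0.779 in this order, and within the lower mapping set 0.933, 0.901, -0.833 and -0.856. Neutrophil, T cell and B cell sums gave r of -0.277 to -0.222 with adjusted p of 0.333, and the B cell values turned to 0.153 and 0.163 without the 2 farthest cows. For neutrophil sums r was -0.502 in HY and 0.225 in LY with PAEP, and -0.500 and 0.144 with GLYCAM1. B cell sums also had a negative r in HY and a positive one in LY, and T cell sums a negative r in both. Values within a group were not tested. With no normalization factor the neutrophil sum reached r = -0.523 with PAEP and -0.527 with GLYCAM1, with an adjusted p of 0.0237 for both. The sums are unweighted, so genes with many counts weigh most. Among epithelial markers KRT19 averaged 4148 counts per cow, and among macrophage markers CD68 averaged 28926. Single epithelial markers gave r with PAEP from 0.186 (CDH1) to 0.945 (KRT19).

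Marker sums of HY and LY cows overlapped, with a median of 166 and 309 TMM CPM for epithelial markers (35.1 to 2690 and 110 to 1769) and of 3338 and 2758 for macrophage markers (1390 to 6663 and 1725 to 5748). The number of genes with a count also moved with the members, with r = -0.453 for PAEP and -0.443 for GLYCAM1 (permutation p = 0.0394 and 0.0430, adjusted p = 0.0861 for both, rho = -0.317 and -0.325 with adjusted p = 0.325), and r was -0.203 and -0.196 without the 2 farthest cows. Total counts did not (r = -0.0710 and -0.0738). The part of the cell mixture in the levels of the members was not tested.

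Listed genes are described next by role, and each count is to be read against the 13.0% of all genes called with positive sign and the 16.5% with negative sign for PAEP (13.1% and 16.6% for GLYCAM1). Of 12 other whey genes, 6 were called with positive sign for each member and 0 with negative sign, with a median r of 0.62 for PAEP and 0.60 for GLYCAM1, beside -0.10 over all genes. These were LALBA (r = 0.989 with PAEP and 0.992 with GLYCAM1), LPO for the antimicrobial lactoperoxidase (0.985 and 0.980), FOLR1 for the folate receptor (0.979 and 0.978), PIGR, which carries antibodies across the epithelium (0.963 and 0.959), the iron-binding LTF (0.838 and 0.802) and RNASE4 (0.806 and 0.796). Osteopontin (SPP1, 0.334 and 0.343) and the light chain of MHC class I (B2M, 0.0988 and 0.0947) were not called, nor were CLU, CP, ALB and TF. Albumin and transferrin, which reach milk largely from blood, had under 1 count per cow on average.

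Among relatives of beta-lactoglobulin, 7 of 13 listed genes of the lipocalin and fatty acid binding families were measured. PTGDS, a prostaglandin synthase of the lipocalin family, was called with positive sign (r = 0.706 with PAEP and 0.680 with GLYCAM1). The retinol carrier RBP4 (-0.520 and -0.541) and the complement gene C8G (-0.542 and -0.574) were called with negative sign, and APOD, APOM, ORM1 and FABP5 were not called. The median r was -0.08 for PAEP and -0.09 for GLYCAM1, near that of all genes.

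Among hormone receptors and regulators of milk protein genes, 13 of 17 were measured, and for each member 5 were called with positive and 5 with negative sign, beside 13.0% and 16.5% of all genes for PAEP. Positive sign was found for the transcription factors NFIB (r = 0.977 with PAEP and 0.969 with GLYCAM1) and ELF5 (0.954 and 0.966), for the receptors of growth hormone (GHR, 0.690 and 0.724) and prolactin (PRLR, 0.663 and 0.680), which had about 15.1 and 15.7 counts per cow on average, and for SOCS2, a feedback inhibitor of their signal (0.525 and 0.535). Negative sign was found for IGF1R (-0.801 and -0.797), the phosphatase PTPN1 (-0.593 and -0.612), SOCS3 (-0.553 and -0.600), STAT5B (-0.552 and -0.534) and STAT5A (-0.498 and -0.515). STAT5A and STAT5B carry the prolactin signal in the epithelium and are also expressed in leukocytes. NR3C1, YY1 and CISH were not called.

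Genes of the milk fat globule and of fatty acid synthesis mostly moved with the members. Of 12 measured, 9 were called with positive sign (13.0% of all genes for PAEP) and DGAT1 with negative sign for each member, and the median r was 0.87 for both. BTN1A1, the butyrophilin of the globule membrane (0.985 with PAEP and 0.993 with GLYCAM1), FABP3 (0.977 and 0.972), MUC1 (0.967 and 0.947), SCD (0.941 and 0.958), MFGE8 (0.931 and 0.913) and FASN (0.912 and 0.914) led them. The fat droplet gene PLIN2 (0.407 and 0.395) and the fatty acid transporter CD36 (0.225 and 0.265) were not called. Of 6 lactose synthesis genes, LALBA and UGP2 (0.823 and 0.824) were called with positive sign, and the UDP-galactose transporter SLC35A2 (-0.792 and -0.806) and the glucose transporter SLC2A1 (-0.610 and -0.646) with negative sign. B4GALT1, the catalytic subunit that LALBA works with (-0.294 and -0.258), and PGM1 were not called. The median of this list was -0.31.

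Of the cell type markers, 11 of 12 epithelial genes were called with positive sign for each member (13.0% of all genes for PAEP), led by KRT19 (0.945 with PAEP and 0.918 with GLYCAM1) and EHF (0.926 and 0.937), and CDH1 was not called. With negative sign 6 of 8 macrophage genes were called (16.5% of all genes for PAEP), among them CD14 (-0.846 and -0.859) and CSF1R (-0.825 and -0.830), and of 6 neutrophil genes MMP9 alone (-0.548 and -0.549). The macrophage genes MSR1 (0.172 and 0.197) and C1QA (-0.393 and -0.437) were not called, and MSR1 had a positive r. No T cell or B cell gene was called for either member in these regressions.

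**Figure D5:**
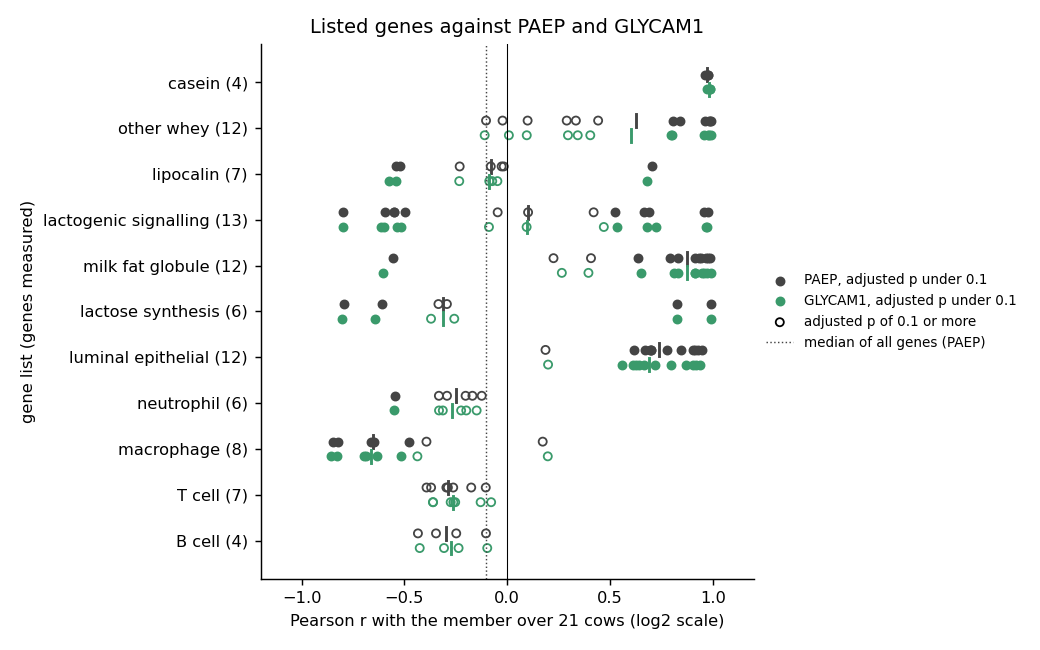
Pearson r over 21 cows between each measured gene of 11 lists and PAEP (dark) or GLYCAM1 (green), with bars at the list medians and a dotted line at the median of all genes for PAEP (-0.10). Filled points have an adjusted p under 0.1. Caseins sit at 0.96 to 0.99, epithelial genes are mostly positive and macrophage genes mostly negative.

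The genes whose order over the 21 cows was most like that of PAEP, among 9627 genes with a mean of at least 10 counts, included BTN1A1 (rho = 0.994), HSTN (0.992), the growth factor gene BTC, LPO and TMEM125 (each 0.991), the keratin gene KRT24 (0.990), EFHD1 (0.988), LALBA (0.987) and GLYCAM1 (0.986). For GLYCAM1 they were BTN1A1 and KRT24 (each 0.988), CSN3, HSTN and PAEP (each 0.986), ALOX15 (0.984), and EFHD1, LALBA, LPO and SCGB1D (each 0.983). The lists share 6 genes, which is 6 of 10 in each. CSN3 ranked at 23 for PAEP and 3 for GLYCAM1, CSN1S1 at 61 and 11, CSN1S2 at 82 and 34, and CSN2 at 118 and 58. Neighbours in these orders differ by little, and the order within them was not tested.

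All values are relative to the other transcripts of a library, and counts of PAEP and GLYCAM1 are not compared with each other as levels because transcript lengths were not used here. Cattle are known to carry a beta-lactoglobulin pseudogene, and the count files list reads that aligned to more than one place on a row apart from the genes (4077044 to 15085455 per cow), which was not used here.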

How the data were processed

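Total RNA of milk somatic cells was sequenced, with 1 library per cow and 21 cows. According to the methods of the study and the submitters' processing notes, the authors trimmed the reads with Trimmomatic, mapped them to bosTau7 with Bowtie2 within TopHat2, converted the alignments with SAMtools and counted reads per gene with HTSeq. Versions, strand setting and counting mode are not given in the sources used here. The authors deposited raw read counts per gene for each cow, without normalization. A row that names no gene held 0.0360% to 0.151% of the counts and was left out, and 23 rows whose symbols had turned into dates could not be named.

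Counts were scaled to CPM with TMM factors of edgeR 4.0.16 (R 4.3.3) and transformed as log2(CPM + 0.25). Each trait was regressed on each of the 12333 genes counted in 1 cow or more, with Benjamini-Hochberg adjustment over all of them, and HY was compared with LY by the quasi-likelihood test of edgeR, with DESeq2 1.42.0 as an alternative. The call threshold was an adjusted p of 0.1. The study tried the same one in these cows, found no gene for milk yield and then took an unadjusted p under 0.05. Correlations were tested with 100000 permutations in Python 3.11.15 (SciPy 1.17.1), group means by exact permutation tests, all two-sided, and intervals of r are Fisher 95% intervals. To count ratios, 0.5 was added on both sides. Fits across genes were tested on simulated data. No libraries were alike within counting noise, since chi-square per degree of freedom was at least 33.7 in all pairs. The cows are separate animals, and p-values measure the spread between them.

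The groups come from the yielding group in the labels, and the stages from gaps in the labelled lactation period, taken in days as in the methods. Some labelled days lie outside the sampling times that the methods give, and the stages do not follow those times. The members, gene lists and tests were chosen with earlier results of these data known. Named genes are the members, the listed genes and the 10 genes with the highest rho with each member. Listed genes without a row are not analysed here. Values of some genes under this rule are not reported here. Gene identities were read from RefSeq names, without coordinates because the builds differ. Alternatives were other size factors, no factor, library sizes without the milk protein genes, other pseudocounts, a minimum of 10 counts in every cow, covariates, robust regression (Huber's k = 1.345), other tests, the lower mapping set and leaving out each cow.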

Additional observations from a re-analysis of the deposited data

How the results depend on the processing

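Of 55 results, 44 kept their direction and side of the threshold (counts, their size within 1.5 times) without any one cow. Among 269 values under other settings 240 were unchanged in this sense. With edgeR on the counts the sign turned for PAEP and GLYCAM1 with yield (0.11 and 0.26 on the log2 scale per SD), fat (0.64 and 0.82), protein (0.24 and 0.40) and solid (0.14 and 0.29), and multiple regression turned GLYCAM1 with solid to 0.0105. Genes called numbered 22 for yield, 767 for lactation period and 4 for solid with edgeR, 753 for lactation period with at least 10 counts in every cow, and 1 for HY against LY with DESeq2, in place of 0. Without a cow the lactation count ran from 0 to 1052, and it rose above 0 without HY cow 2814, 2920 or 3057 or LY cow 3407. At p under 0.05 the filter left 124 genes for yield (307 unfiltered), 62 for fat (284), 81 for protein (284), 69 for solid (204) and 93 for HY against LY (580, here 50 higher and 43 lower), with 7146 genes tested. edgeR gave 386 for solid, and DESeq2 367 for HY against LY. Without cow 3280 the yield count was 484, without cow 3262 the lactation count 1667 and without cow 2920 the fat count 466.

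Given parity and lactation period the ratio to casein turned sign with yield for PAEP (0.0981) and GLYCAM1 (0.0888), and for GLYCAM1 with protein (0.179) and solid (0.114). In the lower mapping set PAEP to casein gave 0.0108 with yield and, now past the threshold, -0.601 with lactation period. With no normalization factor the neutrophil markers passed it, at -0.523 for PAEP and -0.527 for GLYCAM1. Without a cow the ratio of PAEP to casein ran from -0.118 to 0.174 with yield, 0.139 to 0.452 with fat, -0.0441 to 0.223 with protein and -0.248 to 0.00936 with solid. That of GLYCAM1 ran from -0.228 to 0.144 with yield, -0.608 to -0.471 with lactation period, 0.0666 to 0.312 with fat, -0.175 to 0.142 with protein and -0.317 to 0.0556 with solid. The cause of these changes was not tested. Relations of the members to the caseins, to each other and to epithelial and macrophage markers kept their calls under every alternative run. No paired analysis was possible because the groups are different cows and their replicate numbers only name them. The 21 single libraries limit the precision, not the counts of the members.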
